A study of Mus musculus with 2 samples.

Results

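Fibroblast and meningeal bins were positions of 16 µm on a spatial transcriptome map of the mouse brain that carried the RNA of fibroblasts, the cells that build the coverings of the brain and the sheaths of its larger vessels. Members were chosen by their own counts of 5 genes: a bin was taken when it held at least 100 UMIs (unique molecular identifiers, each standing for 1 captured probe molecule), at least 3 UMIs summed over Dcn, Lum, Col1a1 and Col1a2, and 0 UMIs of Myh11, which marks arterial smooth muscle. By this rule 1196 of 119617 bins were members at 3 days after injury (1.0%, 95% Clopper-Pearson interval 0.944 to 1.06) and 461 of 103316 bins were members at 28 days (0.446%, 0.406 to 0.489). A further 281 and 120 bins held 3 or more defining UMIs but also Myh11 and were left out. A bin is a small region of a 10 µm section that can hold parts of several cells, so a member is a bin with fibroblast RNA and not a single fibroblast.

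Each time point was 1 coronal section of 1 male C57Bl6 mouse (C57BL/6 J in the study's methods) of 3 months. The labels call the mice untreated, and the surgery was done under ketamine and medetomidine with buprenorphine and bupivacaine against pain. The injury was a controlled cortical impact (CCI), in which a bone flap over the right parietal lobe is removed and a piston strikes the exposed site, and the opened skull is part of the model. Tissue was taken 3 days after CCI in one animal and 28 days after CCI in the other, and the sham-operated animals of the study design were not analysed here. With 1 section per time point there is no spread between animals, no test was possible and no p-value is given. The sections held 120615873 and 82422389 UMIs in all, and intervals cover counting error only. The injured side was placed by 6 phagocyte genes, whose summed level was 336 CPM (UMIs per 1000000 UMIs) there at 3 days, against 92.6 CPM across the boundary. The section of 28 days had 603 and 81.3 CPM, and these genes were left out of every count. A higher level of other phagocyte genes on the injured side is still not independent of how that side was placed.

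The meninges are layered. The dura lies under the bone, the arachnoid is a sheet of joined cells whose transporters and junctions separate the cerebrospinal fluid from the dura, and the pia lies on the brain and follows its larger vessels inwards. Meningeal fibroblasts make fibrillar collagens, the small proteoglycans that space collagen fibrils, retinoic acid and growth factors, and after a wound of the brain fibroblasts are known to build the connective tissue part of the scar. Dcn (decorin) and Lum (lumican) encode such proteoglycans, and Col1a1 and Col1a2 encode the chains of type I collagen.

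On mm10, the build named in the submitters' processing notes, Dcn lies on chromosome 10 from 97479500 to 97518163 and Lum from 97565501 to 97572703, with 47337 bases between them. Col1a1 lies on chromosome 11 from 94936224 to 94953042 and Col1a2 on chromosome 6 from 4505618 to 4541543. Promoter windows of RefSeq on GRCm38.p6, from 250 bases before to 50 bases after a gene's start, were looked up for the 4 defining genes and for the 10 genes with the highest ratio of injured over opposite side on the lower surface at 3 days among those with at least 200 UMIs there, and 7 of these 14 genes matched. The windows of Col1a2, Tnc and Vim are shown because Col1a2 defines the members and Tnc and Vim were among the 10. TATAAA, and CCAAT or its reverse complement ATTGG, are in capitals.
Col1a2, chr6:4505368-4505667, plus strand: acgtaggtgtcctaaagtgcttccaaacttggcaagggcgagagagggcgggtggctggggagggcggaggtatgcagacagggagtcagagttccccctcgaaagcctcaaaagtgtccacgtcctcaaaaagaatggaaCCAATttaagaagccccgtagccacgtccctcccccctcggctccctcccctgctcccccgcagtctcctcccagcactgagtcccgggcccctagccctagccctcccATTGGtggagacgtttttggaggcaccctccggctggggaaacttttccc
Tnc, chr4:64046887-64047186, minus strand: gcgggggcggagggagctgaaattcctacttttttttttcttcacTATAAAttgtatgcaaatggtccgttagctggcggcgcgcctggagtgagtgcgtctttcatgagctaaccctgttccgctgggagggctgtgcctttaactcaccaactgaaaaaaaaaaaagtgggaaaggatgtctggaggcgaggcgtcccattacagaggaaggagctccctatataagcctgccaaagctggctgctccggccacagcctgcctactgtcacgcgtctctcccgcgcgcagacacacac
Vim, chr2:13574061-13574360, plus strand: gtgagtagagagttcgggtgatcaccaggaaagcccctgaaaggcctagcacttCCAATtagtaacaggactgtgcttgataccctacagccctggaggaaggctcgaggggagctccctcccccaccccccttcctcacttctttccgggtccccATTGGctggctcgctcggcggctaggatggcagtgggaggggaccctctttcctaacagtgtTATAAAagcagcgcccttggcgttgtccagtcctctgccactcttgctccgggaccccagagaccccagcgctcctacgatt
TATAAA on the gene's own strand stood in at least 1 window of 4 of the 6 matched genes of the 10 (Tnc, Spp1, Vim and Col3a1). Of all 32851 windows 8.32% held it. Tnc and Spp1 had 2 windows each, so the count of genes and the share of windows are unlike measures. In Vim it began 32 bases before the start and in this window of Tnc 205 bases before it, and in Spp1 and Col3a1 211 and 117 bases before it. CCAAT on the gene's own strand stood in 21.1% of all windows, in 1 of the 6 matched genes of the 10 (Vim) and, in Col1a2, 109 bases before the start. These are matches of letters and say nothing of binding.

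The members lay at the rim of the tissue and were, over all bins, denser on the injured side. At 3 days 686 of 39116 bins of the injured side were members (1.75%, 1.63 to 1.89) and 510 of 80501 bins of the opposite side (0.634%, 0.580 to 0.691). At 28 days the counts were 342 of 49478 (0.691%, 0.620 to 0.768) and 119 of 53838 (0.221%, 0.183 to 0.264). These intervals count each bin as separate although members lie in touching patches, so they are too narrow for a comparison of the sides. A member needs 3 UMIs and its share follows depth. Over all bins the medians of the injured and the opposite side were 804 and 871 UMIs per bin in the earlier section and 564 and 657 in the later one, and over members 1053 and 841.5, and 1097.5 and 877. Bins were then thinned to 300 UMIs, which left out 4297 shallower bins of the injured and 8918 of the opposite side at 3 days, and 9853 and 9532 at 28 days. Over the remaining bins the shares were 0.520% (181 of 34819) against 0.145% (104 of 71583) at 3 days and 0.212% (84 of 39625) against 0.0361% (16 of 44306) at 28 days. Fewer fibroblasts and less fibroblast RNA per cell cannot be told apart in such shares.

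A bin was called a border bin when it lay within 12 bins (192 µm) of a position without tissue, and 74.8% of injured-side and 85.1% of opposite-side members were border bins at 3 days, and 93.6% and 81.5% at 28 days. Of all border bins at 3 days 7.05% on the injured side and 2.99% on the opposite side were members, and of all inner bins 0.543% and 0.115%. At 28 days the border shares were 2.93% and 1.33%, and the inner shares 0.0570% and 0.0473%. The excess of members in the inner tissue of the injured side seen at 3 days was thus small in the section of 28 days, with 22 inner members on each side. With the boundary moved 20 bins towards the injured side, the opposite side had 153 inner members at 3 days in place of 76. Many inner members of the injured side thus lay next to the boundary, and the size of that excess depended on where the sides were divided. Within 32 µm of the nearest empty position at 3 days the sides had like shares, 8.31% on the injured and 8.24% on the opposite side. Deeper in the rim the share on the injured side was 16.3% at 32 to 64 µm and 5.72% at 64 to 128 µm, where the opposite side had 8.68% and 0.562%. At 28 days the injured side had 8.55%, 5.98% and 1.15% in the same 3 bands and the opposite side 3.14%, 4.35% and 0.286%.

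**Figure D1:**
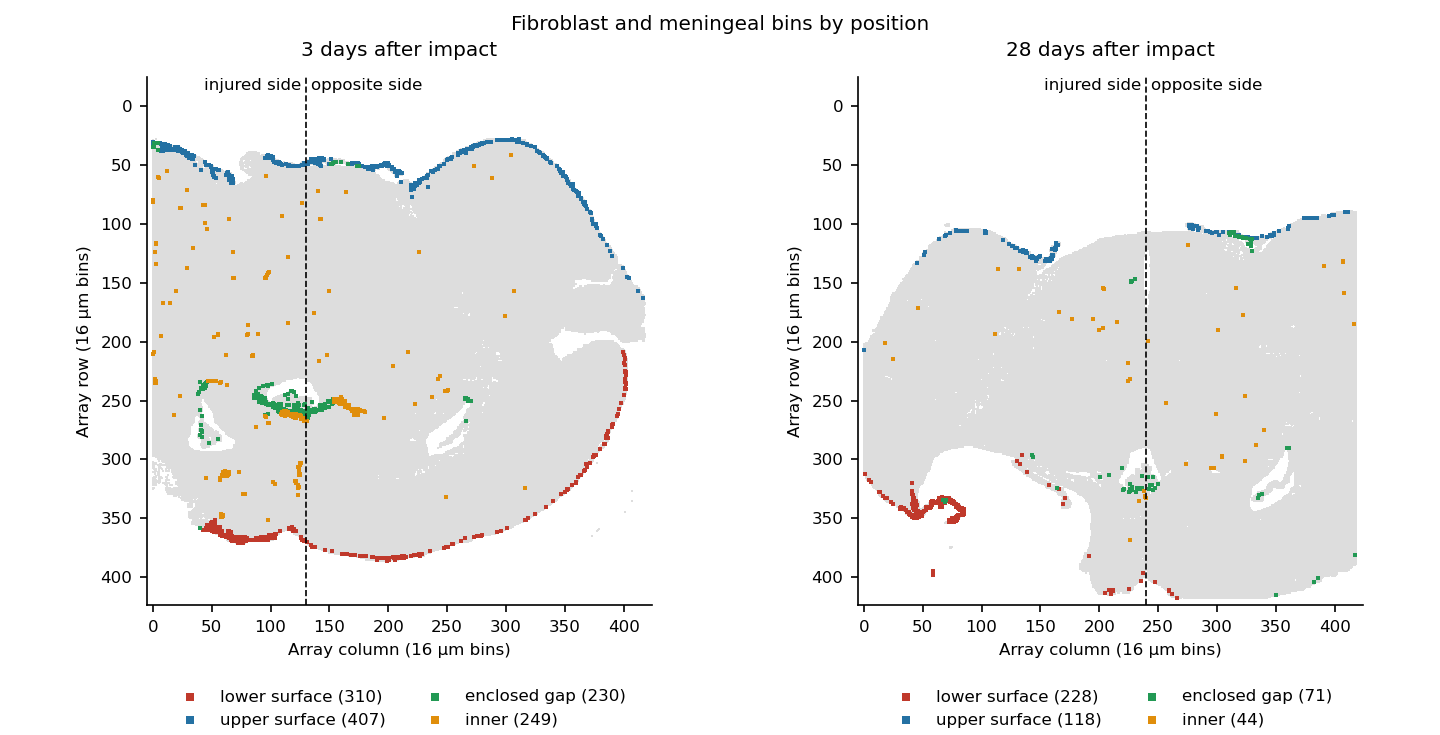
Position of the members (points coloured by compartment, with their number) over all tissue bins (grey) in the sections of 3 and 28 days, with the array column on the horizontal axis, the array row on the vertical axis and the boundary between the sides as a dashed line. The tissue is cut by the array's edge on the injured side at 3 days and on the opposite side at 28 days. Most members lie near the outer surface or enclosed gaps and the others in inner tissue, with 686 of 1196 members on the injured side at 3 days and 342 of 461 at 28 days.

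**Figure D2:**
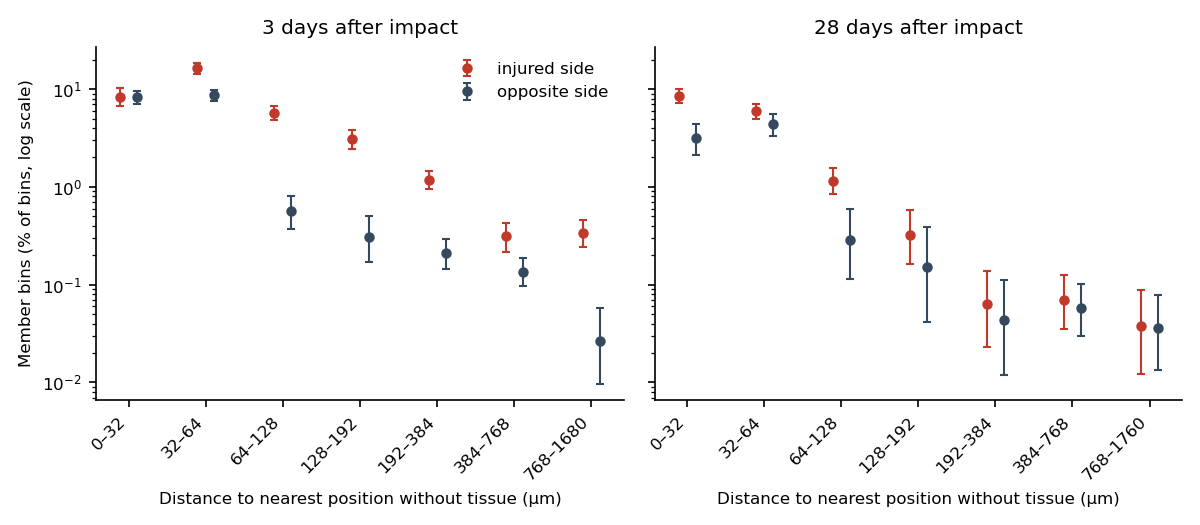
Share of bins that are members (vertical axis, percent) by distance to the nearest position without tissue (horizontal axis, µm), for each side and section, with 95% Clopper-Pearson intervals. On the injured side at 3 days the share stays at 5.72% in the band of 64 to 128 µm, where the opposite side has 0.562%.

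The border was of several kinds, and the members were split after their positions were seen. Outer surface bins were split by row into a lower surface and an upper surface, and enclosed gaps are connected empty areas of fewer than 1000 positions. Whether a gap was a ventricle, a tear or a small notch of the rim was not determined. The upper surface is the hypothalamic side: the hypothalamic neuropeptide genes Avp, Oxt, Hcrt and Pmch had a mean row of 108 where the tissue had a median row of 202 at 3 days, and 157 against 239 at 28 days. At 3 days the injured side had 184 members on the lower surface (11.6% of its bins there), 165 on the upper surface (8.69%), 164 at enclosed gaps (4.33%) and 173 in the inner tissue. The opposite side had 126 (2.59%), 242 (4.64%), 66 (1.48%) and 76. At 28 days the injured side had 223 (5.25%), 65 (2.07%), 32 (0.910%) and 22 members, and the opposite side 5 (1.21%), 53 (3.40%), 39 (0.730%) and 22. On the upper surface at 28 days the share was thus lower on the injured side, against the direction over all bins. The opposite side of that section had almost no lower surface on the array, and its members were mostly from other places than those of the injured side.

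Members formed patches. At 3 days there were 344 patches of touching members, of which 199 were single bins, and the largest, of 148 bins, lay mainly at an enclosed gap and crossed the boundary between the sides with 120 and 28 bins. Its defining UMIs were 711 of Dcn, 43 of Lum, 110 of Col1a1 and 115 of Col1a2. The next 2 patches, of 91 bins on the injured upper surface and 84 bins on the injured lower surface, had the opposite make-up, with 119 and 112 UMIs of Dcn against 267 and 275 of Col1a1. At 28 days 181 patches were found, 135 of them single bins, and the largest, of 93 bins, lay on the injured lower surface with 352 UMIs of Dcn and 279 of Col1a1. As the rule used these genes, their levels are a description. Dcn gave 40.9% of the defining UMIs of injured-side members at 3 days and 25.9% of those of opposite-side members, and the shares at 28 days were 41.1% and 31.8%.

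Genes that the rule did not use fit the name of fibroblast and meningeal bins, although they come from the same bins and are no independent test of it. Members were set against the bins within 3 bins (48 µm) of a member that were not members themselves. Of 23 further fibroblast genes, 21 were measured on the injured side at 3 days, meaning at least 50 UMIs over both groups, and 19 of them were at least 2-fold higher in members, where 7.17% of all 11184 genes were. On the opposite side 12 of 18 were, against 4.57% of all genes. Genes of the arachnoid barrier were at least 2-fold higher for 12 of 15 and 12 of 16 measured. Neuronal markers were at least 2-fold lower for 9 of 10 and 10 of 10, where 10.9% and 9.66% of all genes were. At 28 days the further fibroblast genes were at least 2-fold higher for 11 of 18 measured on the injured side and 11 of 15 on the opposite side, where 6.68% and 6.82% of all genes were, and the arachnoid genes for 7 of 15 and 13 of 14. Neuronal markers were lower for 9 of 10 on each side, where 12.1% and 14.6% of all genes were. At the threshold of the rule, the 456 bins with exactly 3 defining UMIs at 3 days had 56.9 UMIs of the further fibroblast genes per 10000, the 939 bins with exactly 2, just outside, had 40.3, and the 740 bins with 4 or more had 73.8. At 28 days these values were 41.7, 37.3 and 48.4 per 10000, so bins just outside the rule differed from members by little there.

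Other cells shared these bins, and their levels differed between places. The summed microglia and macrophage markers (14 genes) ranged from 10.7 to 41.0 UMIs per 10000 over the compartments of the section of 3 days and from 5.7 to 79.9 at 28 days, highest on the injured lower surface in both. Choroid plexus markers (10 genes) ranged from 663 to 904 UMIs per 10000 at enclosed gaps. Elsewhere they were at most 4.7, except for 34.2 and 23.8 in the injured inner tissue of 3 and 28 days and 101 on the injured lower surface at 28 days. Markers of T cells and neutrophils were at most 3.6 everywhere. At 3 days proliferation genes had 6.6 UMIs per 10000 on the injured lower surface and 0.3 on the opposite one.

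**Figure D3:**
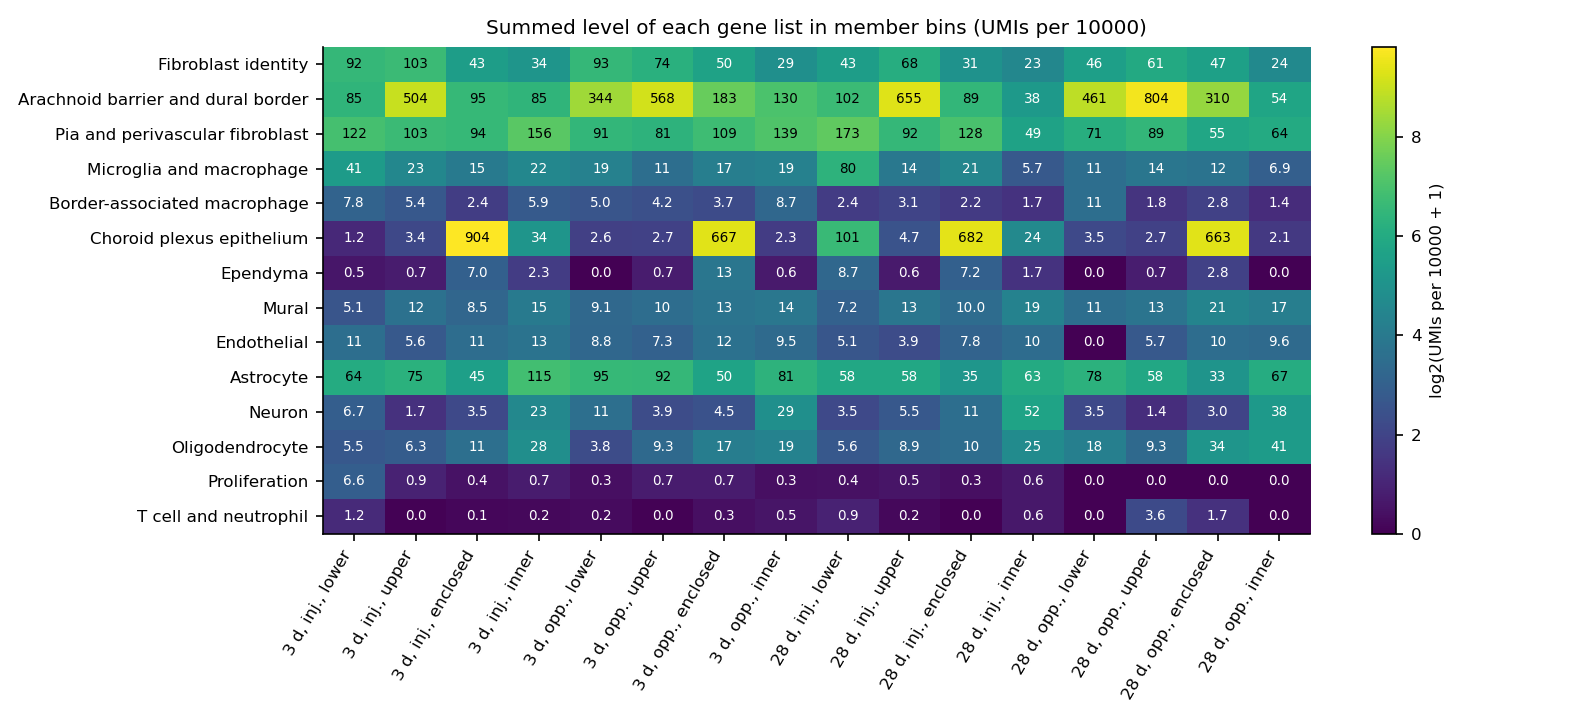
Summed UMIs per 10000 UMIs of the marker lists of other cell types and of meningeal layers (rows) in the members of each compartment, side and section (columns), printed in each cell and coloured on the scale of log2(value + 1). Microglia and macrophage markers are highest on the injured lower surface, at 41.0 and 79.9, and choroid plexus markers at enclosed gaps, at 663 to 904.

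Border and inner members were compared on the opposite side, away from the lesion. On the opposite side at 3 days, 434 border members were set against 76 inner members, and 314 of 2469 genes were at least 2-fold higher (12.7%) and 155 at least 2-fold lower (6.28%) at the border. Of the inner members 32 were 1 patch of touching bins. Without that patch 44 inner members were left, and 406 genes were higher (17.5%) and 215 lower (9.28%). As the border members held 432374 UMIs and the inner members 64169, a gene reached the minimum of 50 UMIs mainly through the border, and the counts are a description. Of 14 measured arachnoid genes, 7 were at least 2-fold higher and 1 was lower, with a median log2 ratio of 1.19 where the median of all genes was -0.01. Slc47a1, an exporter of organic cations, had 150 UMIs at the border and 0 in inner members, and Cdh1, the adhesion molecule of epithelial junctions, had 58 and 0. Against a floor of 3 UMIs over the inner members, Slc47a1 was at least 7.42-fold higher and Cdh1 at least 2.87-fold higher. The exception was the cystine transporter Slc7a11, at -1.55 (95% interval -2.04 to -1.01) with 109 and 47 UMIs.

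Among genes with at least 200 UMIs, Ttr (3813 border and 7 inner UMIs), Igkc, an immunoglobulin light chain (239 and 0), and the matricellular gene Ccn3 (530 and 2) stood highest, with Ttr and Ccn3 at log2 ratios of 6.24 (5.29 to 7.65) and 4.98 (3.44 to 8.35). Fn1, which encodes fibronectin, had 510 and 5 UMIs (3.78), Mgp, an inhibitor of calcification, 1114 and 12 (3.73), and Thbd, the thrombomodulin gene, 377 and 4 (3.64). Ttr is made by choroid plexus, whose markers stood at 667 UMIs per 10000 at the enclosed gaps of this side and 2.3 in its inner members, and 3802 of the 3813 border UMIs were at enclosed gaps. Igkc was at least 11.8-fold higher against a floor of 3 UMIs. Lower at the border were Snhg11 (149 and 71 UMIs, -1.69), Apod (2558 and 772, -1.02) and Aldh1a2, which makes retinoic acid (535 and 156, -0.98). Neuronal Snap25, just below the 200 UMIs of this ranking, was lower too (97 and 94, -2.71). With TMM scaling the split was 84.0% of calls higher in place of 67.0%, and with UMIs per bin it was 83.4%. With a pseudocount of 2 UMIs it was 46.6%, with 166 genes higher and 190 lower, and with genes of at least 20 UMIs 52.0%, so the balance of calls depended on these choices.

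At 28 days only 97 border and 22 inner members were on the opposite side, and 168 genes were measured, of which 56 were at least 2-fold higher (33.3%) and 13 lower (7.74%). The groups held 94933 and 14527 UMIs, so a gene was measured mainly through the border, and 5 of the 16 arachnoid genes were. With genes of at least 20 UMIs 243 were higher and 177 lower. Ptgds, the prostaglandin D synthase that the leptomeninges secrete, had 5122 border and 63 inner UMIs, a log2 ratio of 3.63. Ttr had 2316 and 2 UMIs (7.15). TMM scaling moved the median of all genes to 1.23 and the share of higher calls from 81.2% to 99.0%, so ratios in this comparison are read against that median.

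At 3 days, Tnc, C3, Hmox1 and Timp1 had the highest ratios of injured over opposite side among genes with at least 200 UMIs, and Igkc the lowest. Of 6767 measured genes 176 were at least 2-fold higher (2.6%) and 87 at least 2-fold lower (1.29%). Tnc, which encodes tenascin-C, a matrix glycoprotein of healing tissue, had 354 UMIs (441 CPM) in injured-side members and 26 UMIs (52.4 CPM) in opposite-side members, a log2 ratio of 3.05 (2.50 to 3.71). It was found in 107 of 686 and in 23 of 510 members. Of the other 9 leading genes, C3, the central complement protein, had 204 and 22 UMIs (2.49), Hmox1, which breaks down heme, 377 and 57 (2.02), and Timp1, an inhibitor of matrix metalloproteinases, 306 and 48 (1.97). S100a4 and the immediate early gene Egr1 followed at 1.85 and 1.83. With UMIs per bin in place of CPM, 90.7% of calls were higher in place of 66.9%.

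The remaining leading genes were Clic6 (341 and 62 UMIs, 1.76), Ttr (19538 and 3820, 1.66), Enpp2 (1805 and 382, 1.55) and Col9a3 (184 and 39, 1.53). Of 8 measured choroid plexus markers 7 were at least 2-fold higher, where 2.6% of all genes were. Their median was 1.63, and no marker of that list of 10 was at 0 on either side. The largest patch, at an enclosed gap, crosses the boundary between the sides. With the boundary moved 20 bins towards the injured side, Clic6 was at -0.31, Ttr at -0.27, Enpp2 at -0.25 and Col9a3 at -0.27, and the choroid median was -0.09. The direction of these genes therefore depended on where the sides were divided.

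Lower on the injured side was Igkc, with 12 UMIs against 239 UMIs, a log2 ratio of -4.95 (-5.98 to -4.18). The antibody chains were local: 231 of the 239 UMIs lay on the opposite upper surface, 83 members held any, and 10 bins held 49.8% of them. Ighm, the heavy chain of IgM, had 64 and 201 UMIs (-2.33). Ptgds had 13798 and 18741 UMIs (-1.13), Slc47a1 83 and 150 (-1.54), Ccn3 331 and 532 (-1.38) and Myoc, which encodes the secreted protein myocilin, 205 and 396 (-1.64). Camk2a, a kinase of excitatory neurons, was at -2.24 and Slc1a2, the glutamate transporter of astrocytes, at -1.27, and the sulfate transporter Slc26a2 was at -1.20.

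Over the fixed gene lists at 3 days, the matricellular genes had 3 of 8 measured members at least 2-fold higher and 1 lower, with a median of 0.69, against 0.01 for all genes, of which 2.6% were higher and 1.29% lower. Besides Tnc these were Ccn1 (145 and 20 UMIs, 2.14) and Tgfbi (147 and 36, 1.32), and the lower one was Ccn3. Of 14 genes of matrix crosslinking and proteolysis 4 were higher, among them the lysyl oxidase genes Loxl2 (1.74) and Lox (1.08). Of 12 collagens 3 were higher, Col3a1 (741 and 190, 1.27), Col6a3 (1.20) and the basement membrane chain Col4a1 (1.01), while Col6a1 and Col6a2 were at -0.42 and -0.69. Of 20 small proteoglycans and matrix glycoproteins 0 were higher and 1 was lower (median -0.04), of 13 contractile and TGF-beta response genes 2 were higher (Actn1 and Inhba), and the actin gene Acta2 was at 0.04 (-0.24 to 0.33). Of 18 further fibroblast genes 2 were higher, with a median of -0.08.

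The leading genes were then compared by place, beginning with the lower surface, the brain surface away from the hypothalamus. There 184 injured-side and 126 opposite-side members were compared, and 129 of 1015 genes were at least 2-fold higher (12.7%) and 83 lower (8.18%). Tnc had 299 UMIs (1673 CPM) against 6 UMIs (63.5 CPM), a log2 ratio of 4.61 (3.58 to 6.18), and Hmox1 255 UMIs (1427 CPM) against 1 UMI (10.6 CPM), a ratio of 6.49 (4.58 to 12.38). Inhba, a subunit of activin, had 64 and 0 UMIs and was at least 11.3-fold higher. The upper surface gave other values: Tnc had 10 and 18 UMIs (-0.49, -1.80 to 0.67), Hmox1 43 and 47 (0.20) and Inhba 3 and 3. Over the upper surface 49 of 2419 genes were at least 2-fold higher (2.03%) and 58 lower (2.4%).

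The gene lists gave the following counts on this surface, where 12.7% of all 1015 genes were at least 2-fold higher and 8.18% lower. Matricellular genes were at least 2-fold higher for 4 of 6 measured (median 1.83), with Ccn1 at 3.86 and Ccn2 at 2.48, and genes of crosslinking and proteolysis for 4 of 7 (median 1.67), with Loxl2 at 3.44 and Timp1 at 2.92. Collagens were higher for 3 of 5 (median 1.53), with Col3a1 at 410 and 39 UMIs (2.46) and Col4a1 at 218 and 38 (1.58). Further genes at this surface were Spp1, which encodes osteopontin (406 and 27 UMIs, 2.97), the growth factor binding gene Igfbp3 (105 and 3, 3.99), the intermediate filament gene Vim (981 and 93, 2.47) and the cytoskeletal genes Actn1 (2.65) and Tagln (1.65).

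Lower on this surface were genes known from the leptomeninges. Of 9 measured arachnoid genes 4 were at least 2-fold lower and 0 higher, with a median of -0.92 against 0.06 for all genes, of which 8.18% were lower. Ptgds had 1120 UMIs (6266 CPM) against 2856 UMIs (30240 CPM), a log2 ratio of -2.27, and Slc47a1 had 20 and 41 (-1.94). Ccn3 (36 and 110, -2.52), Myoc (30 and 85, -2.41), the proteoglycan genes Fmod (18 and 45, -2.22) and Ogn (25 and 56, -2.07), Aldh1a1, which makes retinoic acid (23 and 53, -2.11), and the growth factor gene Igf2 (83 and 174, -1.98) were lower too. On the upper surface 0 of 14 arachnoid genes passed 2-fold, and Ptgds was at -0.22. Of all genes measured there 2.03% were at least 2-fold higher and 2.4% lower, so a count of 0 among 14 is near that share. Within the injured side the lower surface stood against the upper one in the same way: 174 of 1846 genes were at least 2-fold higher (9.43%) and 169 lower (9.15%), with Tnc at 5.15, Ptgds at -2.82 and 9 of 13 arachnoid genes lower. On the opposite side the same comparison gave 0.05 for Tnc and -0.77 for Ptgds.

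Microglia and macrophage markers were at 41.0 UMIs per 10000 on the injured and 19.1 on the opposite lower surface. Of 8 measured 6 were at least 2-fold higher, where 12.7% of all genes were, and 0 and 1 of the 14 listed were at 0. Phagocyte genes placed the side, so these values are not independent of that choice. In members without any UMI of 8 such genes, 179 injured-side and 231 opposite-side bins from all places, 42 of 1698 genes were at least 2-fold higher (2.47%) and 50 lower (2.94%). In these bins Tnc had 37 and 15 UMIs (1.40, 0.53 to 2.40), C3 56 and 1 (5.36), Ptgds was at -1.16 and Slc47a1 at -2.13. Hmox1 was at 0.31 (-0.45 to 1.08) and Timp1 at 0.45 (-0.31 to 1.24), and neither interval excludes equality. These bins come from unequal places, so the surfaces of the injured side were compared without such UMIs too, over 34 lower and 42 upper bins. There Tnc had 30 and 3 UMIs (3.89, 2.40 to 6.44) and Timp1 23 and 5 (2.86, 1.54 to 4.72), where all members of these surfaces gave 5.15 and 2.77. Ptgds was at -2.41 and Col3a1 at 1.54 (0.89 to 2.22). Hmox1 had 15 and 12 UMIs (1.08, -0.11 to 2.31) against 2.87 over all members of these surfaces, and the part of phagocytes in its level was not tested. C3 had 12 UMIs on the injured lower surface at 3 days against 80 at enclosed gaps and 95 in the inner tissue of the injured side.

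**Figure D4:**
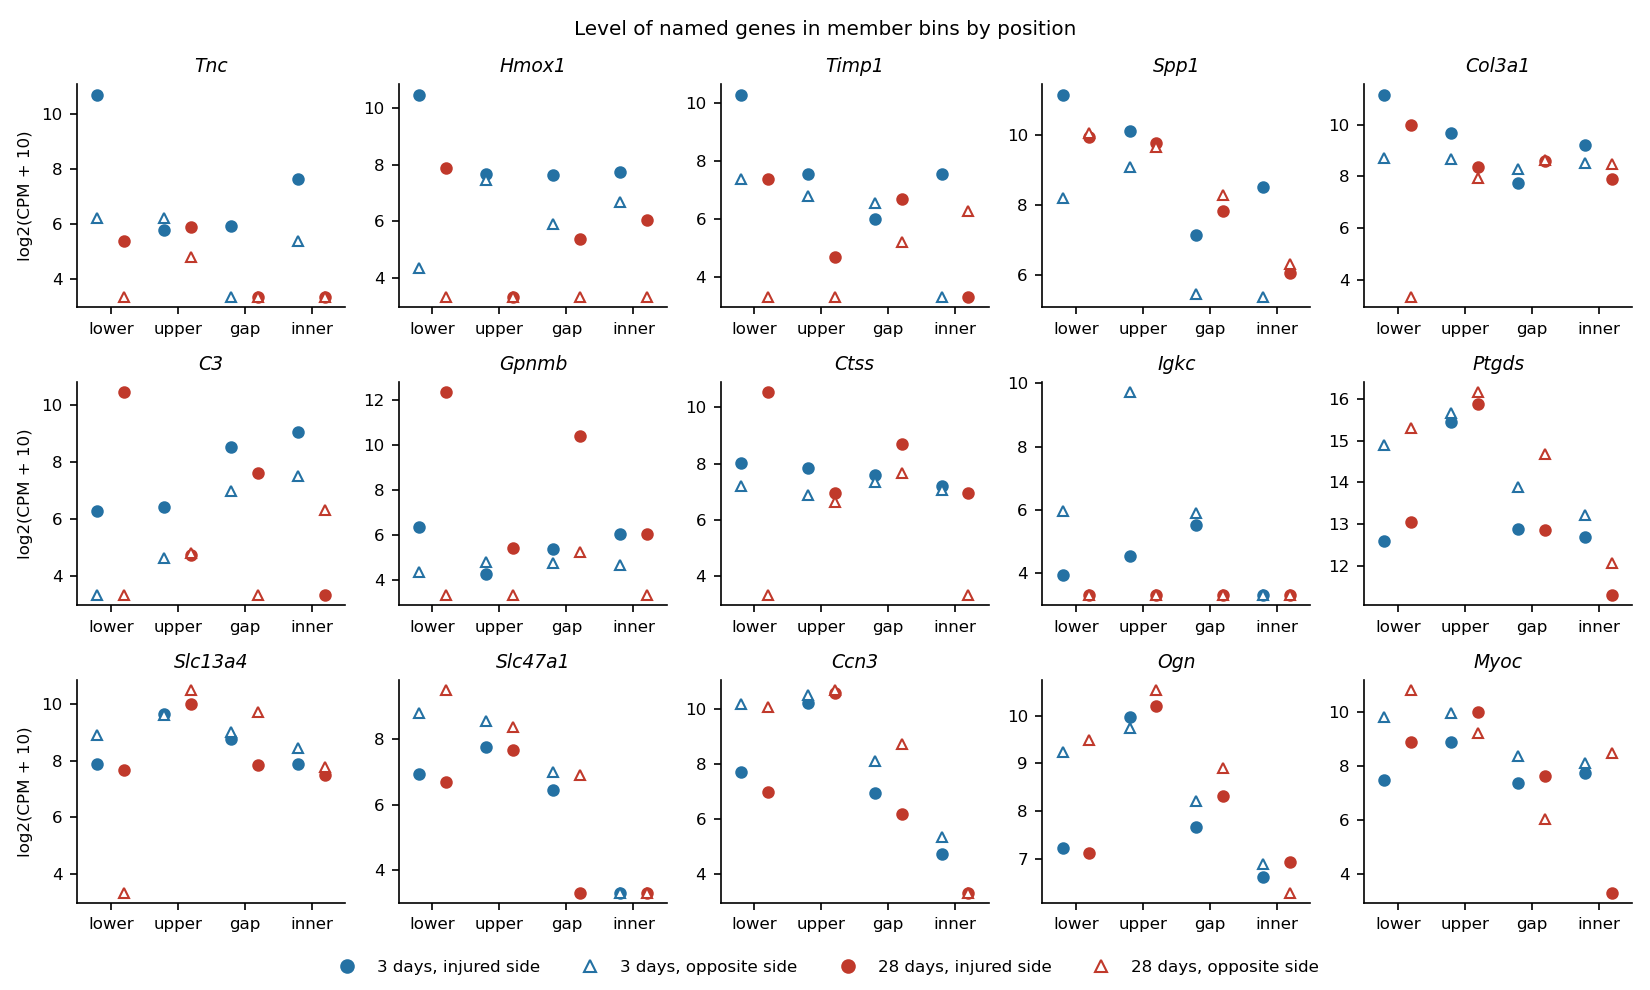
Level (log2 of CPM + 10, where a level of 0 lies at the log2 of 10) of selected genes in the members of each compartment, by side and section; the opposite lower surface at 28 days rests on 5 bins. Tnc and Hmox1 stand out on the injured lower surface at 3 days (1673 and 1427 CPM), and Gpnmb and C3 on the same surface at 28 days (5231 and 1397 CPM), where Ptgds is at 8577 CPM against 59636 CPM on the injured upper surface.

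At 28 days phagocyte and complement genes stood highest on the injured side and barrier genes lowest. Of 2638 measured genes 258 were at least 2-fold higher (9.78%) and 122 lower (4.62%) on the injured side. The injured-side members held 434366 UMIs and the opposite-side members 109460, so a gene reached 50 UMIs mainly through the injured side, and with a minimum of 20 UMIs 59.4% of calls were higher in place of 67.9%. The counts of genes and of list members at 28 days are therefore a description. Gpnmb, a glycoprotein of lipid-laden phagocytes, had 1736 UMIs (3997 CPM) against 1 UMI (9.14 CPM), a log2 ratio of 8.19 (6.29 to 14.08), and was found in 166 of 342 and 1 of 119 members. C3 had 458 and 2 UMIs (5.53, 3.99 to 8.90) and was found in 137 of 342 injured-side members. Among genes with at least 200 UMIs the next were Mpeg1 (319 and 5, 3.87), the fatty acid binding gene Fabp5 (327 and 6, 3.67), the lysosomal proteases Ctss (498 and 12, 3.33), Ctsb (2.84) and Ctsd (2.53), and the phagocyte genes Fcer1g (2.88), C1qb (2.39) and Tyrobp (2.37). With TMM scaling 79.1% of calls were higher, and with UMIs per bin 93.0%, in place of 67.9%.

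Genes of the barrier layer were among the 122 genes lower at 28 days. Of 11 measured arachnoid genes 9 were at least 2-fold lower and 0 higher, with a median of -1.37 against -0.03 for all genes, of which 4.62% were lower. Slc13a4, a sulfate transporter, had 136 UMIs (313 CPM) against 113 UMIs (1032 CPM), a ratio of -1.72 (-2.09 to -1.35), Ptgds 6736 UMIs (15508 CPM) against 5185 UMIs (47369 CPM), a ratio of -1.61, and the organic anion transporters Slc22a6 and Slc22a8 were at -2.14 and -1.89. Other leading genes were Ccn3 (-1.70), Ogn (-1.68), Sned1 (-1.56), Trp53i11 (-1.50), the adhesion molecule Alcam (-1.33), the amino acid transporter Slc6a20a (-1.28) and Nnat (-1.20). Fmod was at -1.97, and Cyp26b1, which degrades retinoic acid, at -2.06.

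The counts of other lists at 28 days stand beside 9.78% of all genes higher and 4.62% lower. Of 10 measured complement, acute-phase and chemokine genes 6 were at least 2-fold higher (median 1.20): C3, Lcn2 (147 and 1 UMIs, 4.63), Saa3 (145 and 0, at least 12.2-fold), C1s1 (1.75), C4b (1.32) and Lbp (1.09). Of 7 collagens 3 were higher (median 0.94), the basement membrane chains Col4a1 (402 and 23, 2.11) and Col4a2 (70 and 1, 3.57) and the fibrillar Col3a1 (361 and 32, 1.49). Of 10 contractile and TGF-beta response genes 1 was higher, Tgfb1 (1.92), and 3 lower, Myl9, Cnn2 and Tpm1. Mmp3, a matrix protease, had 64 and 0 UMIs and was at least 5.38-fold higher. Igfbp5 was at 1.61 (1217 and 100 UMIs), and Igf2 and Igfbp2 at -0.63 and -1.01. Of 9 measured retinoic acid genes 2 were at least 2-fold higher and 2 lower, with Stra6 at 1.38 and Rarres2 at 2.66. Of 14 further fibroblast genes 1, Col3a1, was higher, with a median of -0.55.

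As the sides differed in where their members lay, surfaces were compared within the injured side at 28 days: 223 members on the lower surface and 65 on the upper. Of 1579 genes 261 were at least 2-fold higher (16.5%) and 141 lower (8.93%) on the lower surface. The lower surface held 322852 UMIs and the upper 61741, so genes were measured mainly through the lower surface and the balance of calls is a description. Gpnmb had 1689 and 2 UMIs (7.01), C3 451 and 1 (5.85), and Lcn2 147 and 0, Saa3 144 and 0 and Mmp3 64 and 0, which were at least 9.37-fold, 9.18-fold and 4.08-fold higher. The secreted immune genes Lbp (2.49) and C4b (1.93), the basement membrane genes Col4a1 (2.34) and Nid1 (2.26), and Col3a1 (1.60) and Apod (4575 and 367 UMIs, 1.25) were higher as well. Of 10 further fibroblast genes 7 were at least 2-fold lower, of 6 arachnoid genes 5, and of 8 contractile genes 5. Ptgds had 2769 UMIs (8577 CPM) against 3682 UMIs (59636 CPM), a ratio of -2.80, where the opposite side gave -0.84 (-1.12 to -0.57) with 5 lower surface bins. Ccn3 (-3.68), Fmod (-3.19), Ogn (-3.16), Alcam (-2.63), Tagln (-2.58) and Slc13a4 (-2.39) were lower too.

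Between the upper surfaces of the sides few genes passed 2-fold at 28 days. Of 205 genes measured there 1 was at least 2-fold higher (0.488%) and 3 lower (1.46%) on the injured side, and 0 of 6 arachnoid genes passed 2-fold. Ptgds was at -0.28, Slc13a4 at -0.49, Ccn3 at -0.11 and Ogn at -0.33 between them. Col3a1 was at 0.46 with 20 and 13 UMIs, and Ctsd, higher over all injured-side members, was at -1.49 here. Ctsd had only 24 UMIs over all opposite-side members, so its value on this surface rests on few UMIs. At this depth smaller differences were not detectable in most genes.

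Phagocyte RNA was high on the injured lower surface, where Gpnmb and C3 were high too. All 11 measured microglia and macrophage markers were at least 2-fold higher on the injured side (median 2.37), where 9.78% of all genes were. Phagocyte genes placed the side, so this direction is not independent of that choice. The leading genes Ctss, Fcer1g, C1qb and Tyrobp are themselves on this list. The summed markers were at 79.9 UMIs per 10000 on the lower and 14.4 on the upper surface of the injured side, and 0 and 3 of the 14 listed were at 0. In members without any UMI of 8 such genes, 83 injured-side and 62 opposite-side bins, 5 of 238 genes were at least 2-fold higher (2.1%) and 2 lower (0.84%). There Ptgds was at -0.85, Slc13a4 at -0.73, Ccn3 at -0.54 and Col3a1 at -0.03 (-1.03 to 1.03), while Col4a1 was at 1.35 (0.41 to 2.50) with 43 and 11 UMIs. These values are closer to 0 than those over all members for each of the 5 genes, but the bins come from unequal places: on the injured side 21 of 223 lower surface and 30 of 65 upper surface members were left. Between these 21 and 30 bins Ptgds had 231 and 1300 UMIs (-2.47, -2.68 to -2.27), Ccn3 6 and 38 (-2.55, -4.18 to -1.39), Ogn 7 and 28 (-1.91, -3.42 to -0.75) and Slc13a4 7 and 20 (-1.43, -2.98 to -0.20). Choroid plexus RNA moved with the same groups, with 1995 and 6 UMIs of Ttr (8.28), 126 and 5 of Enpp2 and 33 and 0 of Clic6. Col4a1 was at 0.79 (-0.53 to 2.28) there. The part of phagocytes and of choroid plexus in these values was not tested.

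Bins next to the members shared part of the pattern. In the neighbouring bins at 28 days Gpnmb had 1294 and 3 UMIs (7.53) and C3 was at 5.56, but Ctss was at 1.73 against 3.33 in members, Col3a1 at 0.26 against 1.49 and Col4a1 at 0.34 against 2.11. At 3 days Tnc was at 0.79 in neighbours against 3.05 in members, with 303 and 137 UMIs. Hmox1 was at 1.54, C3 at 2.29 and Ptgds at -1.86.

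**Figure D5:**
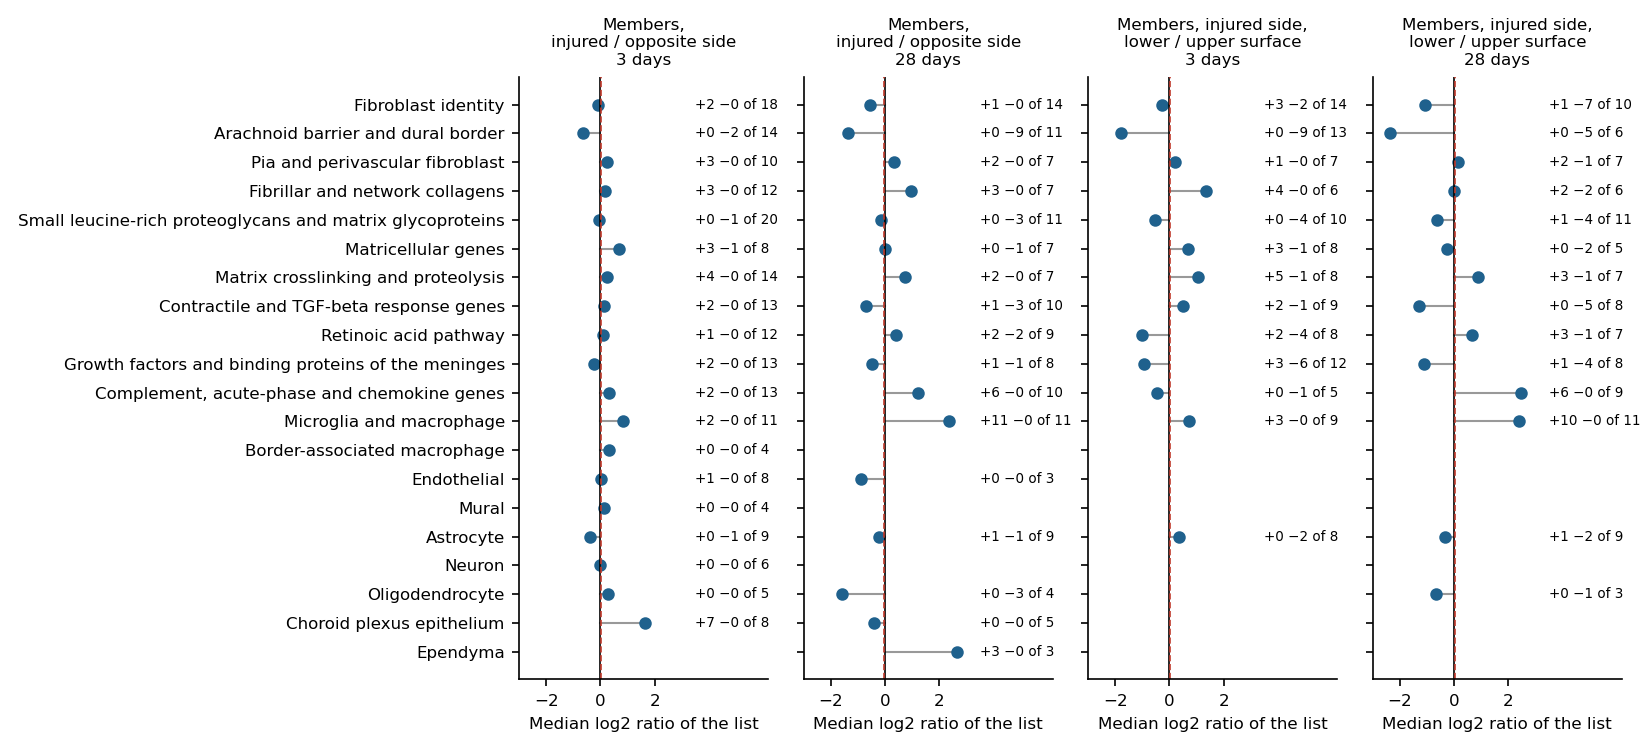
Median log2 ratio of each gene list (points) for members of the injured against the opposite side and, within the injured side, of the lower against the upper surface, at 3 and 28 days. The dashed line is the median of all genes, the figures at the right count the genes at least 2-fold higher (+) and lower (−) of those measured, and lists with fewer than 3 measured genes are not drawn. The arachnoid list is at -0.64 and -1.37 between the sides and at -1.80 and -2.37 between the surfaces, and the microglia and macrophage list at 0.82 and 2.37 between the sides.

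The time points, with 1 animal each, are set side by side here. The injured lower surface was not the same kind of place in both sections. It had 1590 bins at 3 days and 4247 at 28 days, and its members held more choroid plexus and phagocyte RNA at 28 days. Time and place cannot be told apart in its levels. C3 was among the 10 highest and Ccn3, Trp53i11 and Ptgds among the 10 lowest genes of the injured side in both sections. The places differed for C3, whose injured-side UMIs lay mostly off the lower surface at 3 days and mostly on it at 28 days. Tnc on the injured lower surface was at 1673 CPM at 3 days and at 31.0 CPM (10 UMIs) at 28 days, Hmox1 at 1427 and 226 CPM, Timp1 at 1242 and 158 CPM, and Inhba at 358 and 9.3 CPM. In the reverse direction C3 was at 67.1 and 1397 CPM, Gpnmb at 72.7 and 5231 CPM, Saa3 at 33.6 and 446 CPM, and Lcn2 at 83.9 and 455 CPM. Col3a1 was at 2294 and 1007 CPM and Col4a1 at 1220 and 1106 CPM on that surface. Ptgds was low at both times, 6266 and 8577 CPM, where the injured upper surface had 44186 and 59636 CPM.

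Among 232 genes with at least 200 UMIs in both sections, the log2 ratio of injured over opposite side was greatest at 28 days relative to 3 days for Fabp5 (a difference of 3.64), C3 (3.04), Apoe (2.72), Ctss (2.62) and Fcer1g (2.36). It was least for Ttr (-2.48), Enpp2 (-2.01), Nnat (-1.34), Slc13a4 (-1.19) and Igfbp2 (-1.15). The values for Ttr and Enpp2 turn with the place compared: on the outer surface alone they were 7.88 and 2.18. The differences of the other genes mix time with place too. On the lower surface lay 184 of 686 injured-side and 126 of 510 opposite-side members at 3 days, and 223 of 342 and 5 of 119 at 28 days. Under the alternatives 161 values of the time differences stayed, 53 moved and 7 changed sign. At 28 days the injured lower surface held 3074 UMIs of Ttr where the injured upper surface held 7, and over the injured side 10 bins held 83.2% of the gene's UMIs.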

How the data were processed

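Visium HD libraries (10x Genomics) were made from paraffin-embedded sections, and the authors deposited raw UMI counts of 19070 probe-set genes per bin of 16 µm, made with Space Ranger 4.0.1 and mm10 per the submitters' processing notes. Bins under 100 UMIs were left out. Counts were summed over the members of a group and given as CPM without the 5 genes of the rule. Ratios used 0.5 added UMIs and 95% exact conditional binomial intervals, genes needed 50 UMIs over both groups to be counted (some named genes are given below this minimum, with their UMIs), and a call is a ratio of at least 2-fold. Intervals reached a median of 0.61 (log2) to either side of the ratio between the sides at 3 days and 0.86 at 28 days. Bins are not replicates. Named genes were the 10 highest and 10 lowest (8 for border against inner, 5 for the time difference) with 200 UMIs, and list members. Members and lists were chosen with earlier results of these data known, and surfaces and genes named for them after the values were seen. A few genes are not reported here. Alternatives included TMM scaling (edgeR 4.0.16), and the code was tested on simulated data. Python 3.11.15, pandas 2.3.3 and scipy 1.17.1 were used.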

Additional observations from a re-analysis of the deposited data

How the results depend on the processing

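Each ratio rests on 1 section per time point, and the shares over all bins of a side kept their direction under all 9 alternatives tried in each section, while on the upper surface at 28 days the injured side had the lower share (2.07% against 3.40%). No paired analysis was possible because each time point held 1 section and the groups were compared within it. The log2 ratio of the member shares (1.47 at 3 days, 1.64 at 28 days) was 1.18 and 1.15 with at least 2 defining UMIs, 2.22 and 3.26 with at least 5, 1.84 and 2.55 after thinning, and 1.02 at 3 days with the boundary moved 20 bins towards the injured side. Of the shares and counts of genes under all alternatives, 126 stayed within their limits and 82 moved. Of the values of single genes and list medians 2646 stayed, 443 moved and 23 changed sign, and the cause was not tested. A change of sign was counted only where the main value was at least 2-fold. Smaller ratios that changed sign are among those that stayed or moved.

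Between the sides 176 genes were higher and 87 lower at 3 days, and 258 and 122 at 28 days, and the following values keep this order. At 1.5-fold they were 609 and 494, and 485 and 439. With UMIs per bin they were 362 and 37, and 534 and 40, and TMM scaling gave 80 lower at 28 days. With genes of at least 20 UMIs they were 482 and 257, and 761 and 521, and of at least 200 UMIs 28 and 15, and 38 and 13, where fewer genes are measured. In inner bins alone they were 33 and 22, and 0 and 1, at enclosed gaps alone 40 and 21, and 2 and 12. On the upper surface alone 49 were higher at 3 days, and 1 higher and 3 lower at 28 days. Without microglia or macrophage UMIs they were 42 and 50, and 5 and 2, and without the largest patch on each side 121 and 60 at 28 days. At least 2 defining UMIs gave 147 lower at 3 days, at least 5 gave 76 lower at 28 days, and the moved boundary 55 lower at 3 days.

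Between border and inner members 314 genes were higher and 155 lower at 3 days, and 56 and 13 at 28 days. At 1.5-fold 524 and 466 genes passed at 3 days and 27 were lower at 28 days. TMM scaling gave 83 lower at 3 days, and 98 higher and 1 lower at 28 days, UMIs per bin gave 85 and 5 lower, median ratio scaling 25 lower at 28 days, and a pseudocount of 2 gave 166 higher and 190 lower at 3 days. At least 2 defining UMIs gave 479 and 436, and 151 and 133, and at least 5 gave 78 and 28 at 3 days. Genes of at least 20 UMIs gave 850 and 784, and 243 and 177, and of at least 200 UMIs 52 and 3, and 6 and 0. The injured side gave 299 lower at 3 days, and 436 and 293 at 28 days. Without choroid plexus UMIs they were 194 and 100, and 34 and 6, and without microglia or macrophage UMIs 102 and 31, and 13 and 6. Without the limit on Myh11 they were 85 and 46 at 28 days, and the moved boundary gave 24 lower.

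Among main values of at least 2-fold, signs changed for the following, and sign changes of smaller ratios are not listed. With the boundary moved, Clic6 was at -0.31, Col9a3 at -0.27, Enpp2 at -0.25, Ttr at -0.27 and the choroid plexus median at -0.09 at 3 days. Enpp2 at 3 days was at -1.12 on the lower, -0.69 on the upper and -0.85 on the outer surface, and at -0.27 without choroid plexus UMIs. Tnc was at -0.49 on the upper surface and Slc1a2 at 0.30 at enclosed gaps. In inner bins Ighm was at 0.02 and S100a4 at -0.25, and on the upper surface at 28 days Ctsd was at -1.49, from few UMIs. For border against inner at 3 days with at least 5 defining UMIs, Olfm1 was at 0.05 and the collagen median at -0.17. The time difference of Ttr was 4.96 with at least 5 defining UMIs, 7.02 for members with a neighbouring member, 1.28 without choroid plexus UMIs and 7.88 on the outer surface, that of Enpp2 2.18 on the outer and 0.11 on the upper surface, and that of Igfbp2 0.22 in inner bins. With fewer than 10 bins in a group, no count is given for border against inner at 28 days with at least 5 defining UMIs or a neighbouring member, nor for the lower surface between the sides at 28 days, where the opposite side had 5 bins.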
